A study of Arabidopsis thaliana with 4 samples.

Results

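Transcript levels were compared between the replicate arrays of OsRR6ox seedlings, and 73 genes that differed between these 2 arrays are described here. A gene belongs to the group where its probe set has a single gene known only by a nuclear locus code, the OsRR6ox arrays differ by 1 or more on the log2 scale (at least 2-fold), the wild type arrays differ by less than 1, and the value ranges of the genotypes overlap or lie less than 0.8 apart. The rule selected 73 of 22746 probe sets on the array, or of the 11933 with a single locus-coded gene, and each stands for a different gene. Members were thus chosen by the measured differences between arrays, which are given as a description, with no test. Of the members, 53 were higher on OsRR6ox replicate 2 and 20 on OsRR6ox replicate 1, beside 43.5% and 56.3% of all probe sets at any size of difference. The rule used that contrast, and nothing is read from the split.

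RNA came from whole Arabidopsis thaliana seedlings, 10 days old and in the Col-0 background, on half-strength MS medium. The OsRR6ox seedlings (2 arrays) are transgenic plants with raised expression of a rice gene, the type-A response regulator OsRR6, and the reference is wild type of the same accession and age (2 arrays). The sources used here do not give the promoter of the transgene, the number of independent lines or whether plants were sown and harvested together. The labels call the replicates biological. The limma p-values set the difference between genotypes against the spread between replicate arrays, moderated over all probe sets. With 1 array on each side, a difference between replicates has no error of its own.

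Type-A response regulators are receiver-domain proteins that are induced by cytokinin and dampen its two-component signalling pathway, in which receptors pass phosphate through carrier proteins to type-B regulators in the nucleus. Seedling transcripts also respond within minutes to hours to touch, wounding, microbial molecules and time of day. Genes of AP2/ERF factors, cell surface proteins, peroxidases and immune receptors are among those known to respond to such stimuli. The members carry no name beyond a locus code in the files or the reference table, and the roles given below are general background on the Arabidopsis genome. Genes were grouped by role after their values were seen, and the direction of a role group comes from the contrast that chose its members, so nothing is read from a shared direction.

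The arrays were alike as a whole. Array medians lay between 6.71 and 6.81, and Pearson's r across probe sets, which are not independent replicates, was 0.992 between the OsRR6ox arrays and 0.989 between the wild type arrays. Over all probe sets the median absolute difference was 0.154 between the OsRR6ox arrays and 0.181 between the wild type arrays. A difference of 1 or more was found for 236 probe sets between the OsRR6ox arrays, a background of 1.04%, and for 349 between the wild type arrays, a background of 1.53%. The 236 comprised 86 higher on OsRR6ox replicate 1 (0.378% of all probe sets) and 150 higher on replicate 2 (0.659%). Of these, 122 are unnamed here, 5 have several genes, 20 have a symbol and 89 are locus-coded, from which the limits on the wild type difference and on the gap between genotypes removed 11 and 5.

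Members were mostly expressed genes of middle level. Their mean over the 4 arrays ran from 4.48 to 10.80 with a median of 7.33, against a median of 6.06 for all locus-coded probe sets. When all probe sets were split by level into 4 classes of equal size, from low to high, the classes held 1, 28, 28 and 16 members. They held 4, 75, 92 and 65 of all probe sets past 1 between the OsRR6ox arrays. Of the 73, 6 lay in the lowest 25% of probe sets on at least 1 array and 0 on all arrays. These 6 were AT1G33760, AT4G02170, AT2G15880, AT3G05320, AT2G17850 and AT2G39920, and their lower values lie near array background.

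**Figure D1:**
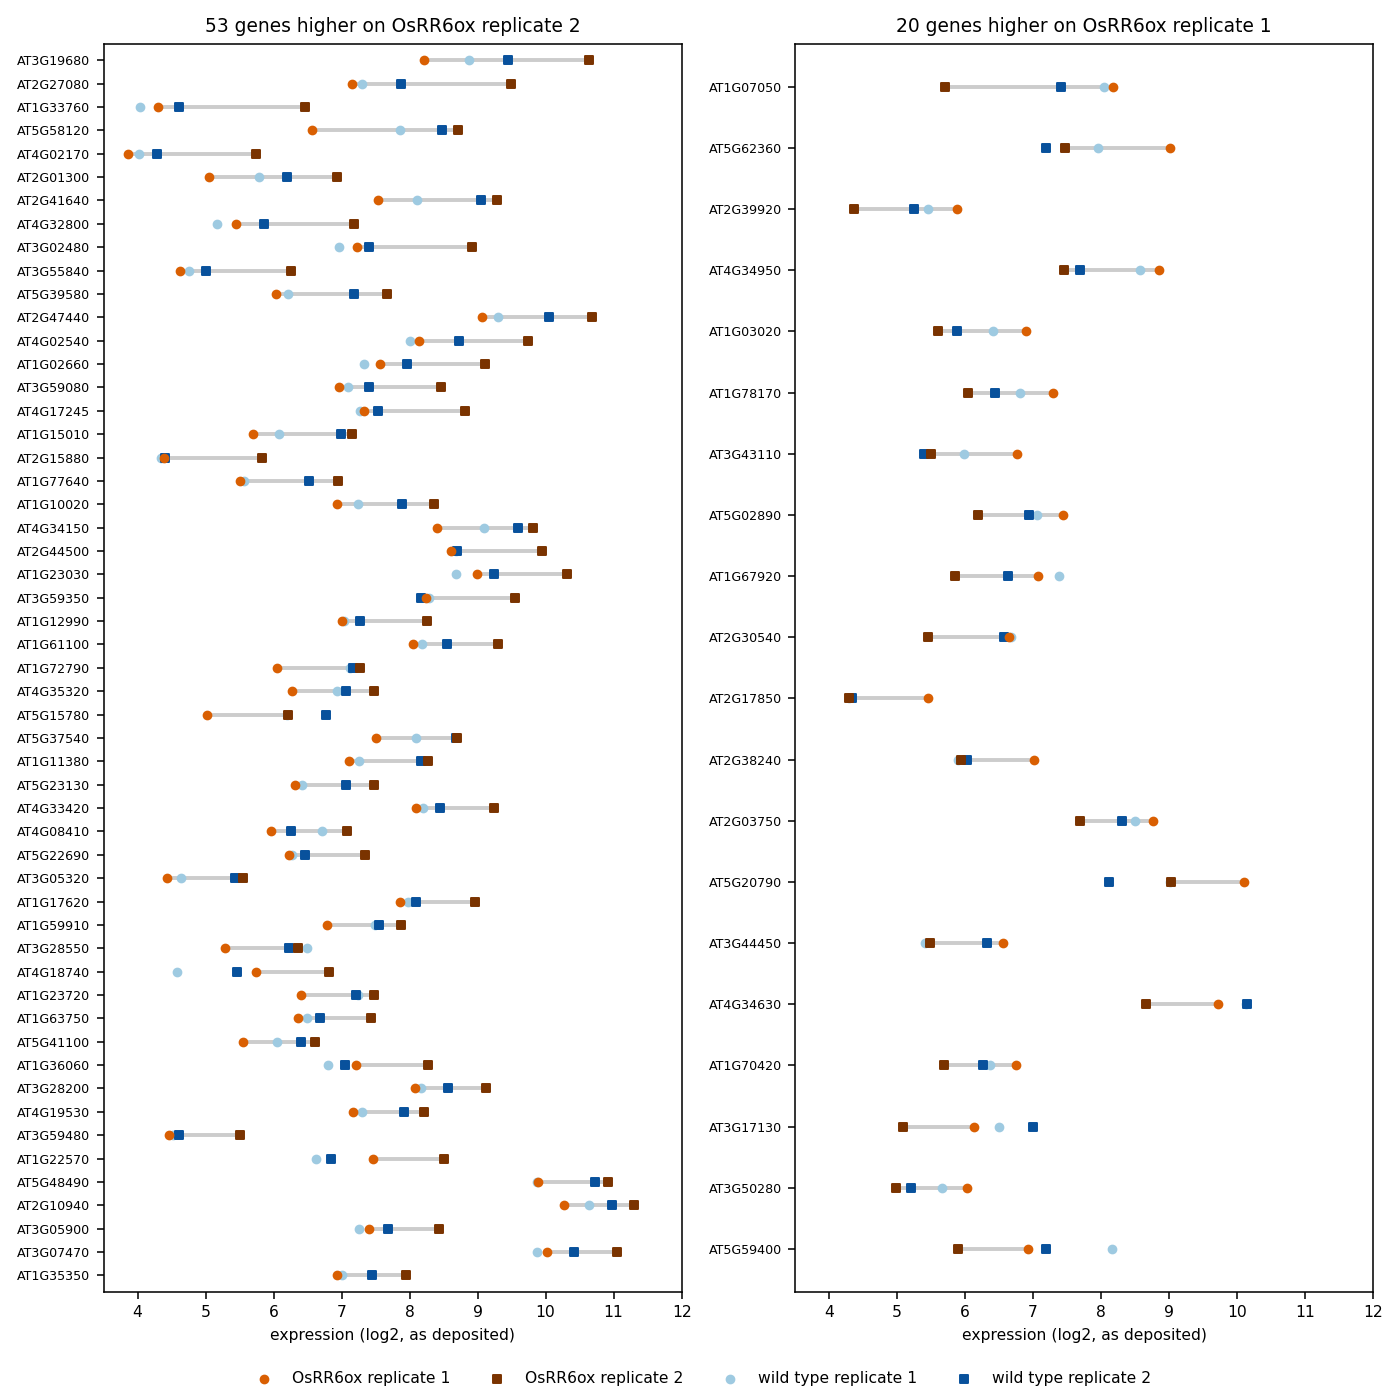
Expression of each member on each array (log2, as deposited), with OsRR6ox in orange and brown, wild type in light and dark blue, and a grey bar joining the OsRR6ox arrays. Points of nearly equal value cover each other. The largest spans belong to AT3G19680 (8.21 and 10.64 on OsRR6ox replicates 1 and 2) and AT1G07050 (8.17 and 5.70).

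Among the 53 genes higher on OsRR6ox replicate 2, the difference between the OsRR6ox arrays ran from 1.02 to 2.43 with a median of 1.23, and 15 of them reached 1.5. AT3G19680 read 8.21 and 10.64 on OsRR6ox replicates 1 and 2, a 5.40-fold span, against 8.87 and 9.45 on wild type replicates 1 and 2. It belongs with AT1G10020 to a small family of plant proteins of unknown function. AT1G10020 read 6.94 and 8.35 in OsRR6ox, against 7.24 and 7.88 in the wild type. In both genes the wild type arrays lay between the OsRR6ox arrays, and replicate 2 was the higher in each genotype.

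All 4 members that encode AP2/ERF transcription factors, a family with many stress-responsive members, were higher on OsRR6ox replicate 2. AT1G33760 read 4.30 and 6.46 in OsRR6ox, against 4.03 and 4.61 in the wild type. AT4G32800 read 5.45 and 7.18 in OsRR6ox, against 5.16 and 5.86 in the wild type. For both, OsRR6ox replicate 2 alone lay far from the other 3 arrays. AT1G77640 read 5.50 and 6.94 in OsRR6ox, against 5.56 and 6.52 in the wild type, so that the arrays formed a pair of replicate 1 arrays below a pair of replicate 2 arrays. AT1G36060, a factor linked to the wound response, read 7.21 and 8.26 in OsRR6ox, against 6.80 and 7.05 in the wild type, and its genotypes did not overlap.

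Of the members higher on OsRR6ox replicate 2, 4 encode immune receptors of the TIR-NBS-LRR class, intracellular proteins that detect pathogen effectors. AT5G58120 read 6.56 and 8.71 in OsRR6ox, against 7.86 and 8.47 in the wild type, and here OsRR6ox replicate 1 was the array that stood apart. The other 3, AT5G22690, AT1G63750 and AT4G19530, spanned 1.12, 1.07 and 1.05 between the OsRR6ox arrays. AT2G27080, of a family of membrane proteins related to the defence protein NDR1, read 7.15 and 9.49 in OsRR6ox, against 7.30 and 7.87 in the wild type. Its relative AT1G17620 read 7.86 and 8.97 in OsRR6ox, against 7.98 and 8.10 in the wild type. AT3G55840, related to a nematode resistance protein of sugar beet, read 4.62 and 6.25 in OsRR6ox, against 4.76 and 5.01 in the wild type. For these 3, OsRR6ox replicate 1 lay with the wild type.

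Secreted peroxidases, which make and use hydrogen peroxide in the cell wall, gave 3 members, also higher on OsRR6ox replicate 2. AT5G39580 read 6.04 and 7.67 in OsRR6ox, against 6.22 and 7.19 in the wild type. AT4G33420 and AT3G28200 spanned 1.15 and 1.05. Genes of glycosyltransferases, which build cell wall sugars and glycans, gave 4 members. The largest span among them was that of AT2G41640, at 7.54 and 9.29 in OsRR6ox, against 8.11 and 9.06 in the wild type. AT2G44500 read 8.61 and 9.94 in OsRR6ox, against 8.69 and 8.69 in the wild type. The first thus differed by replicate number in both genotypes, whereas the second differed in OsRR6ox alone. The remaining glycosyltransferase genes, AT1G12990 and AT3G05320, spanned 1.25 and 1.11.

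The aspartyl protease genes AT3G59080 and AT5G37540 spanned 1.51 and 1.18, and the ubiquitin ligase genes AT4G17245 and AT1G23030 spanned 1.49 and 1.33. AT3G59350, a protein kinase gene, read 8.24 and 9.54 in OsRR6ox, against 8.28 and 8.17 in the wild type, so that 3 arrays stood together below OsRR6ox replicate 2. AT1G02660, which encodes a lipase, read 7.56 and 9.11 in OsRR6ox, against 7.33 and 7.97 in the wild type. AT3G02480, of the late embryogenesis abundant proteins that accumulate in drying tissue, read 7.23 and 8.91 in OsRR6ox, against 6.97 and 7.40 in the wild type. AT4G34150, with a calcium-dependent lipid-binding domain, read 8.40 and 9.81 in OsRR6ox, against 9.10 and 9.59 in the wild type. Among these genes OsRR6ox replicate 2 was the highest of the 4 arrays.

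Other large spans belonged to genes whose role is less clear. AT4G02170 read 3.85 and 5.74 in OsRR6ox, against 4.03 and 4.29 in the wild type. AT2G01300 read 5.05 and 6.93 in OsRR6ox, against 5.78 and 6.20 in the wild type. AT4G02540, which encodes a protein rich in cysteine and histidine, read 8.13 and 9.74 in OsRR6ox, against 8.01 and 8.72 in the wild type. AT2G47440, with tetratricopeptide repeats, was among the more abundant members at 9.06 and 10.68 in OsRR6ox, against 9.30 and 10.05 in the wild type.

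The brightest members were the lipid transfer protein genes AT2G10940 and AT5G48490. AT2G10940 read 10.27 and 11.30 in OsRR6ox, against 10.64 and 10.97 in the wild type. AT5G48490 read 9.89 and 10.92 in OsRR6ox, against 9.87 and 10.72 in the wild type. Next came AT3G07470, at 10.02 and 11.04 in OsRR6ox, against 9.87 and 10.42 in the wild type. All 3 lay close to the limit of 1 between the OsRR6ox arrays and were higher on replicate 2 in each genotype. The ubiquitin ligase gene AT1G23030 read 8.99 and 10.32 in OsRR6ox, against 8.68 and 9.25 in the wild type.

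The remaining members higher on OsRR6ox replicate 2 had spans of 1.02 to 1.44. They include AT1G15010, AT1G61100, AT1G72790, AT4G35320, AT1G11380, AT5G23130, AT1G59910, AT5G41100, AT3G05900 and AT1G35350. AT1G35350, related to a phosphate exporter, read 6.94 and 7.95 in OsRR6ox, against 7.01 and 7.44 in the wild type. AT5G15780, which encodes a protein related to extensins and pollen allergens, read 5.03 and 6.21 in OsRR6ox, against 6.20 and 6.77 in the wild type. In AT5G15780 a wild type array, not OsRR6ox replicate 2, was the highest.

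Among the 20 genes higher on OsRR6ox replicate 1, the span ran from 1.03 to 2.46 with a median of 1.17, and 3 of them reached 1.5. The largest belonged to AT1G07050, which encodes a protein with the CCT motif that is shared with CONSTANS and clock proteins. It read 8.17 and 5.70 on OsRR6ox replicates 1 and 2, a 5.52-fold span, against 8.04 and 7.40 on wild type replicates 1 and 2, so that OsRR6ox replicate 2 stood apart below the other 3 arrays. AT5G62360, a pectin methylesterase inhibitor gene, read 9.01 and 7.47 in OsRR6ox, against 7.96 and 7.19 in the wild type. The other inhibitor gene of this type, AT3G17130, read 6.14 and 5.09 in OsRR6ox, against 6.49 and 7.0 in the wild type. These inhibitor genes thus differed between the wild type arrays in opposite directions.

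AT2G39920, which encodes an acid phosphatase-like protein, read 5.88 and 4.37 in OsRR6ox, against 5.45 and 5.24 in the wild type. AT4G34950, a membrane transporter gene of the major facilitator family, read 8.85 and 7.46 in OsRR6ox, against 8.57 and 7.69 in the wild type. The glutaredoxin genes AT1G03020 and AT2G30540, of small redox proteins, spanned 1.29 and 1.19. In AT1G03020 the wild type arrays read 6.42 and 5.88 beside 6.90 and 5.60 in OsRR6ox, whereas in AT2G30540 the wild type read 6.67 and 6.58 beside 6.65 and 5.46 in OsRR6ox. The first differed by replicate number in each genotype and the second on OsRR6ox replicate 2 alone. The acyltransferase genes AT5G02890 and AT3G50280, of the family that transfers acyl groups from coenzyme A in wax and specialised metabolism, spanned 1.25 and 1.04.

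Some genes were high on OsRR6ox replicate 1 alone. AT2G38240, of the oxygenases that inactivate jasmonate, read 7.02 and 5.93 in OsRR6ox, against 5.90 and 6.03 in the wild type. AT2G17850, with a rhodanese domain, read 5.45 and 4.29 in OsRR6ox, against 4.29 and 4.33 in the wild type. In both, OsRR6ox replicate 2 lay with the wild type. AT3G44450, which encodes an inhibitor of cryptochrome blue-light receptors, read 6.56 and 5.49 in OsRR6ox, against 5.41 and 6.32 in the wild type, so that its replicate difference turned round between genotypes.

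The rest of the largest spans in this direction were close to each other. AT1G78170 read 7.30 and 6.04 in OsRR6ox, against 6.81 and 6.44 in the wild type. AT3G43110 read 6.76 and 5.50 in OsRR6ox, against 5.98 and 5.39 in the wild type. AT1G67920 read 7.07 and 5.84 in OsRR6ox, against 7.37 and 6.63 in the wild type. In these 3 replicate 1 was the higher in each genotype. The acyltransferase gene AT5G02890 read 7.44 and 6.19 in OsRR6ox, against 7.06 and 6.94 in the wild type, so that OsRR6ox replicate 2 stood apart. The brightest in this direction were AT4G34630, at 9.72 and 8.66 in OsRR6ox, against 10.13 and 10.15 in the wild type, and AT5G20790. AT5G20790 read 10.10 and 9.02 in OsRR6ox, against 9.01 and 8.12 in the wild type. The first was lower on both OsRR6ox arrays than in the wild type and the second higher. AT5G59400 read 6.93 and 5.89 in OsRR6ox, against 8.15 and 7.19 in the wild type. The remaining members, AT2G03750 and AT1G70420, had spans of 1.08 and 1.06.

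**Figure D2:**
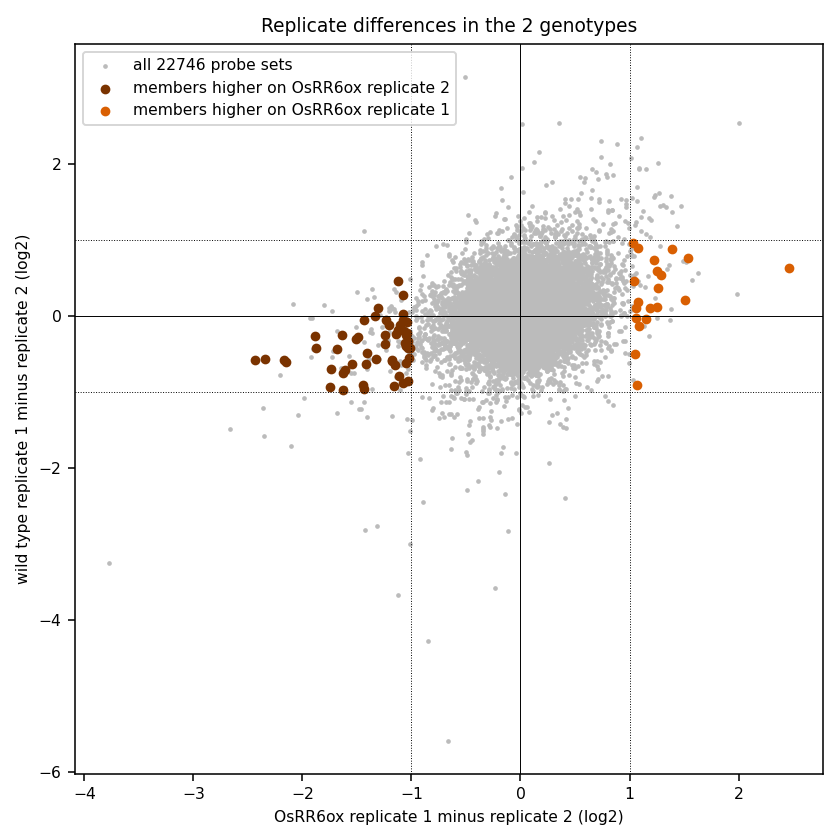
Replicate 1 minus replicate 2 in OsRR6ox (horizontal, log2) and in the wild type (vertical, log2) for all 22746 probe sets in grey and the members in colour, with dotted lines at 1 and -1. Of the 73 members, 64 lie in the quadrants where both genotypes differ in the same direction.

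The sign of the wild type difference, which the rule did not use, mostly followed that of OsRR6ox. Of the 53 members higher on OsRR6ox replicate 2, 49 were also higher on wild type replicate 2 (92.5%), as were 45.0% of all probe sets. Of the 20 higher on OsRR6ox replicate 1, 15 were also higher on wild type replicate 1 (75.0%), as were 54.9% of all probe sets. Those background shares are at any size of difference. Past 1 between the OsRR6ox arrays, 83.3% of all 150 probe sets higher on replicate 2 had the same direction in the wild type. For the 86 higher on replicate 1 it was 86.0%. These 150 and 86 include the members, and also probe sets whose wild type arrays differed by 1 or more, which the rule left out. They are thus not a like background for the 92.5% and 75.0%. The wild type difference of the members was smaller, with a median of -0.42 in the 53 and 0.29 in the 20, replicate 1 minus replicate 2. In 31 members it had the same sign and reached 0.5, and in 17 it was under 0.2 in size. Over all 22746 probe sets, 55.1% had the same sign in both genotypes, and Pearson's r between the replicate differences was 0.26.

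The share with the same sign was larger where the OsRR6ox arrays differed more. Among locus-coded probe sets whose wild type arrays differed by less than 1, it was 51.4% of 7491 with an OsRR6ox difference under 0.2, 55.3% of 3661 between 0.2 and 0.5, 65.8% of 585 between 0.5 and 1, and 87.2% of 78 at 1 or more. The last step differed by direction. For probe sets higher on OsRR6ox replicate 2 the share was 62.4% of 255 between 0.5 and 1, and 93.0% of 57 at 1 or more. For those higher on replicate 1 it was 68.5% of 330 and 71.4% of 21. The 78 at 1 or more include the 73 members. Probe sets of the same 4 arrays are not independent, so these shares describe the arrays and carry no test. Of 118 locus-coded probe sets that differed by 1 or more between the wild type arrays, 11 also did so between the OsRR6ox arrays, and all 11 had the same direction in both genotypes. Whether replicate numbers 1 and 2 mark a shared sowing, harvest or hybridisation was not tested, since the sources used here do not say.

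The members whose wild type difference had the opposite sign were few. Those higher on OsRR6ox replicate 2 were AT3G59350, at 0.11 in the wild type, and the extensin-like genes AT4G08410, AT3G28550 and AT1G23720, at 0.45, 0.27 and 0.03. Those higher on OsRR6ox replicate 1 were AT3G44450, AT3G17130, AT2G38240, AT2G17850 and AT4G34630, at -0.90, -0.50, -0.13, -0.04 and -0.02. For AT1G23720, AT2G17850 and AT4G34630 the wild type arrays were nearly equal.

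Extensins are hydroxyproline-rich structural proteins of the cell wall, and those named here belong to a set active in root hairs. AT4G08410 read 5.96 and 7.08 in OsRR6ox, against 6.70 and 6.25 in the wild type. AT3G28550 read 5.28 and 6.36 in OsRR6ox, against 6.49 and 6.22 in the wild type. AT1G23720 read 6.41 and 7.48 in OsRR6ox, against 7.25 and 7.22 in the wild type. In all 3 OsRR6ox replicate 1 was the lowest of the 4 arrays. The genes are repetitive and close to each other in sequence, and the probe set names of AT4G08410 and AT1G23720 mark probes shared with other transcripts, so their signals may not be separate.

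These 3 genes are part of a root hair list of 32 genes, of which 13 were measured under a single gene. On the OsRR6ox arrays 12 of the 13 were higher on replicate 2, beside 43.5% of all probe sets. The median of the 13 was -0.33 (replicate 1 minus replicate 2), against 0.03 for all probe sets. The 12 include the 3 members, which the rule chose for that difference, so nothing is read from this count or median. On the wild type arrays all 13 were higher on replicate 1, beside 54.9% of all probe sets, with a median of 0.27 against 0.03. As the extensin-like signals may not be separate, the 13 may not be separate readings. The non-member with the largest span was the extensin-like gene AT5G06630, at -0.9981. The summed level of the 13 genes, as log2 of their linear sum, was 12.38 and 12.55 in OsRR6ox, against 11.61 and 11.14 in the wild type. In the comparison of genotypes 3 of the 13 passed (limma, Benjamini-Hochberg adjusted p under 0.05), all higher in OsRR6ox, with a background of 1.30% of all probe sets. They were AT1G30870, at 9.92 and 10.07 in OsRR6ox, against 8.23 and 8.10 in the wild type (limma adjusted p = 0.0102), the expansin gene EXPA7 (limma adjusted p = 0.0392) and AT5G04960 (limma adjusted p = 0.0475). The summed level of the list was thus higher on both OsRR6ox arrays, while its 3 members were low on OsRR6ox replicate 1. In whole seedlings fewer cells of a type and less RNA per cell cannot be told apart.

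**Figure D3:**
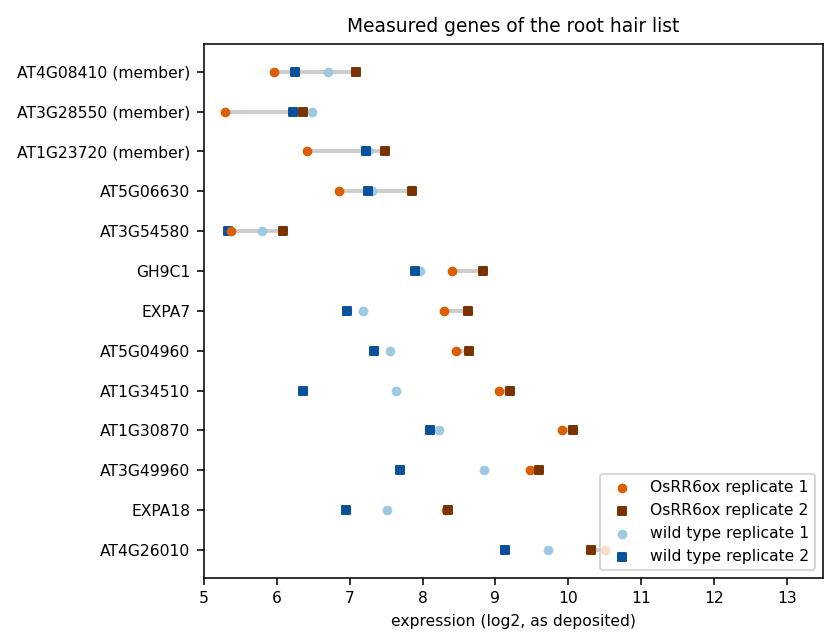
Expression (log2, as deposited) of the 13 measured genes of the root hair list on each array, in the colours given in the legend. The extensin-like members AT4G08410, AT3G28550 and AT1G23720 are lowest on OsRR6ox replicate 1, while 12 of 13 genes are higher on OsRR6ox replicate 2 than on replicate 1. The 12 include these members, which the rule chose for that difference.

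The second list that holds members is that of genes induced by low oxygen, with 23 of 41 measured. Its members AT2G15880, a leucine-rich repeat protein gene, and AT2G17850 differed in opposite directions between the OsRR6ox arrays. AT2G15880 read 4.39 and 5.83 in OsRR6ox, against 4.34 and 4.40 in the wild type. Over the list 17 of 23 were higher on OsRR6ox replicate 1, with a median of 0.29, beside 56.3% of all probe sets. On wild type replicate 1 it was 10 of 23, with a median of -0.04, beside 54.9% of all probe sets. Outside the members the largest spans were those of AT5G66985 and AT4G10270, at 0.75 and 0.73.

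The other 17 of 19 lists held no member. In the heat shock list all 8 measured genes of 20 were higher on OsRR6ox replicate 1, by a median of 0.30, beside 56.3% of all probe sets. On the wild type arrays 7 of 8 were higher on replicate 2, beside 45.0% of all probe sets. Their median there was -0.39 over the 8, replicate 1 minus replicate 2. Only 6 of these 8 lay above the lowest 25% on every array. Of 21 rapid touch and wound genes 3 were measured, with a median of 0.41 between the OsRR6ox arrays, and of 30 salicylic acid and defence genes 3, with a median of -0.29. Of 10 cytokinin type-A response regulators 2 were measured, with a median of 0.28. The touch and wound gene CML37 lay in the lowest 25% on all 4 arrays and the type-A regulator ARR15 on 3. All 3 measured genes of 17 on the jasmonate list were higher on OsRR6ox replicate 1, with a median of 0.90, and 1 of them, PDF1.2, was past 1. Another of the 3, AT1G54020, lay in the lowest 25% on 1 array, and AT3G12900 of the iron list did so on 2. The lists for sulfur deficiency (2 genes measured), sugar starvation (4), iron (8), nitrate (3), aliphatic glucosinolates (1), cold (3) and abscisic acid (1) had 0 genes past 1 between the OsRR6ox arrays, where their medians were -0.43, -0.23, -0.06, 0.03, 0.21, 0.17 and -0.12, and the phosphate list had 0 genes measured. Between the wild type arrays the same lists had medians of -0.61, -0.09, -1.10, -0.08, 0.32, 0.73 and 0.83. The iron list included BHLH101, a transcription factor gene of the iron response, named after its values were seen, at 9.56 and 10.41 in OsRR6ox, against 5.19 and 9.46 in the wild type. Of 14 clock genes 1 was measured, GI, a gene with a daily rhythm, named here after its values were seen. It read 8.44 and 7.75 in OsRR6ox, against 8.44 and 7.59 in the wild type, and was thus higher on replicate 1 in each genotype. The list of light-harvesting and Rubisco genes of green tissue had 3 of 22 measured, LHCB4.1, LHCB4.2 and LHCB4.3, and no Rubisco gene. Their summed levels were 13.92 and 14.07 in OsRR6ox, against 13.56 and 13.68 in the wild type. LHCB4.1 and LHCB4.2 were higher on both OsRR6ox arrays than on either wild type array, but neither passed (limma adjusted p = 0.641 and 0.0705). Arrays did not overlap between genotypes for 46.1% of all probe sets. LHCB4.3 was lower, at 8.92 and 8.87 in OsRR6ox, against 10.17 and 10.44 in the wild type. It passed (limma adjusted p = 0.0257), with a background of 1.30% of all probe sets. The anther list (3 of 6 measured) had 0 genes and the seed list (6 of 19) 2 genes above the lowest 25% on every array.

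Control probe sets were read for depth and RNA quality. The mean of 45 spike-in controls was 8.13 and 8.11 on OsRR6ox replicates 1 and 2, against 8.45 and 8.76 on wild type replicates 1 and 2. The TrpnX probe sets among them, at 3.30 to 3.87, lay at background on every array. The gap between 3′ and 5′ probes of ubiquitin, which is larger in shorter labelled RNA, was 1.21 and 1.25 in OsRR6ox, against 1.83 and 1.77 in the wild type. The same gap was 2.62 and 2.77 in OsRR6ox, against 2.95 and 2.59 in the wild type, for actin, and -0.34 and -0.29 in OsRR6ox, against -0.05 and -0.26 in the wild type, for GAPDH. Of these 3 gaps, that of actin overlapped between the genotypes. The 25S ribosomal RNA control read 6.45 and 7.41 in OsRR6ox, against 7.41 and 9.94 in the wild type, and was thus higher on replicate 2 in each genotype. The part of these measures in the members' differences was not tested.

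**Figure D4:**
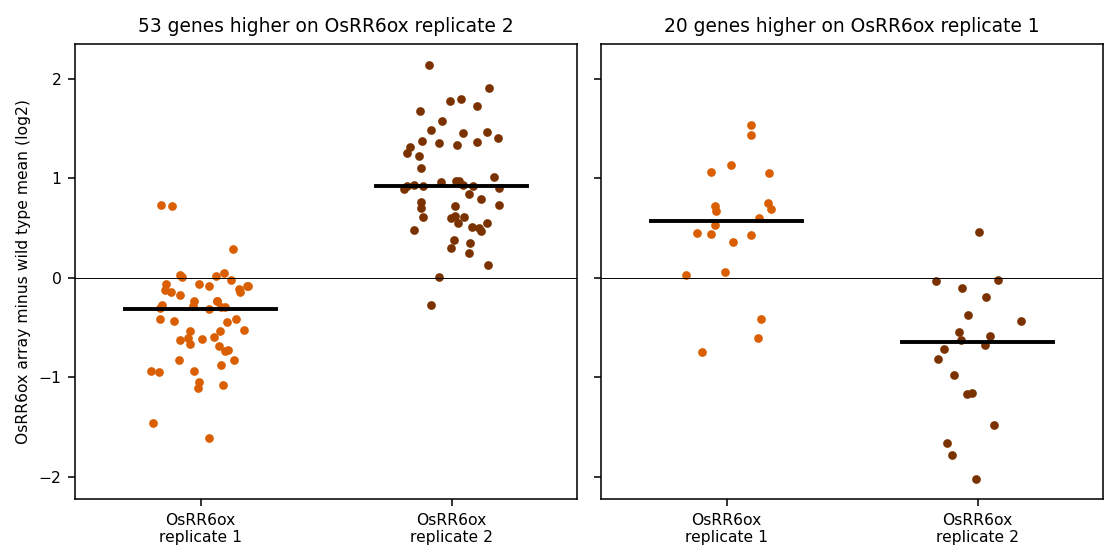
Each OsRR6ox array minus the mean of the wild type arrays (vertical, log2), a point for each member, with black lines at the medians. The 53 genes on the left have medians of -0.31 on OsRR6ox replicate 1 and 0.92 on replicate 2, and the 20 on the right 0.57 and -0.65.

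The rule limits how far the wild type can lie from the OsRR6ox arrays, so the values against the wild type mean are given as a description and nothing is read from them. Among the 53 higher on OsRR6ox replicate 2, the median was -0.31 on OsRR6ox replicate 1 and 0.92 on replicate 2, and 20 of them were 1 or more above the wild type mean on replicate 2, while 5 were 1 or more below it on replicate 1. The wild type mean was nearer OsRR6ox replicate 1 in 37 of the 53 and nearer replicate 2 in 16. Among the 20 higher on OsRR6ox replicate 1, the medians were 0.57 and -0.65, and the wild type mean was nearer replicate 1 in 10 and nearer replicate 2 in 10. Both wild type arrays lay between the OsRR6ox arrays in 45 of the 73.

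Over the 73 members, which the rule chose for the difference between their OsRR6ox arrays, the median of OsRR6ox minus wild type was 0.16 with both OsRR6ox arrays, 0.62 with replicate 2 alone and -0.23 with replicate 1 alone. In the limma fit 0 of 73 members passed at an adjusted p under 0.05 (background 1.30%), and 5 of 73 had an unadjusted p under 0.05, with a background of 15.0%. The rule limited the gap between genotypes, so nothing is read from these counts. Arrays did not overlap between genotypes for 7 members, with a background of 46.1%. These were AT4G18740, AT1G22570, AT1G36060 and AT5G20790, with higher values in OsRR6ox, and AT5G59400, AT3G17130 and AT4G34630, with lower ones. The smallest adjusted p was that of AT1G22570, a transporter gene, at 0.207 (limma), with 7.47 and 8.51 in OsRR6ox, against 6.62 and 6.85 in the wild type.

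Locus-coded genes just inside the limits were AT1G35350 and AT3G07470, with replicate 1 minus replicate 2 at -1.02 each in OsRR6ox, and those just outside were AT5G06630 and AT3G06770, at -0.9981 and -0.9928. Close to the limit on the wild type difference, AT5G39580 and AT5G59400 lay inside at -0.97 and 0.97, and AT5G25240 and AT4G35720 outside at -1.13 and 1.19. On the gap between genotypes AT1G22570 and AT4G34630 came closest from inside at 0.62 and 0.41, and AT4G12490 and AT5G40910 from outside at 1.62 and 1.66. Of the 73 spans, 25 were under 1.1.

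The members were spread over the genome. They fell on chromosomes 1 to 5 as 22, 12, 15, 12 and 12 genes, or 30.1%, 16.4%, 20.5%, 16.4% and 16.4%, beside 25.9%, 16.4%, 20.4%, 14.4% and 22.5% of all locus-coded probe sets. No members were neighbours. The closest pair in the reference table's gene order, AT3G59350 and AT3G59480, had 14 protein-coding genes between them, and both were higher on OsRR6ox replicate 2. Probe sets whose name marks shared probes made up 2.74% of the members and 2.29% of all locus-coded probe sets.

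Probe sets of genes with a symbol differed by 1 or more between the OsRR6ox arrays in 20 cases, of which 14 met all other limits of the rule. These genes are not members, and those named were chosen after their values were seen. Of the 20, 14 were higher on OsRR6ox replicate 2, and 8 of these were also higher on wild type replicate 2. The other 6 were higher on OsRR6ox replicate 1, and 5 of these were also higher on wild type replicate 1. The largest difference was that of EXLA1, an expansin-like gene, at 7.96 and 10.32 in OsRR6ox, against 8.11 and 9.31 in the wild type. HRGP1, which encodes a hydroxyproline-rich cell wall protein, differed by -1.41 in OsRR6ox and by 0.23 in the wild type, replicate 1 minus replicate 2, so that its sign turned round between genotypes. The largest difference towards replicate 1 was that of PDF1.2, a defensin gene, at 7.24 and 6.10 in OsRR6ox, against 5.14 and 5.19 in the wild type.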

How the data were processed

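Values are log2 expression per probe set on 4 arrays, as the authors deposited them. Per the submitters' processing notes R 3.4.0 was used, and for background correction, summarisation and normalization the method is not given in the sources used. After 64 controls were left out, 22746 probe sets remained. Genes came from the platform annotation, updated by gene identifier to the TAIR10.1 table: 13513 probe sets have a single gene (13436 matched), 503 several, and 8730 are unnamed here. All 73 members matched.

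Genotypes were compared by moderated linear models (limma 3.58.1, R 4.3.3, two-sided, Benjamini-Hochberg over 22746 probe sets, threshold 0.05). Simulated arrays with independent errors were used to check the code only, and do not bear on differences shared between arrays. Replicate differences carry no test. Values among the lowest 25% of an array count as background. Precision is limited by having 4 arrays (median residual SD 0.145).

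Members and lists were chosen with earlier results of these data known. Role groups were formed after the values were seen. Planned classes by product wording were not used here, as the reference table holds no such text. Genes named with all values were the 12 largest spans in each direction, the 10 brightest members, list members and the members next to each limit. Genes just outside a limit are given by the value it applies to. Role groups stood in for the planned classes, and examples of them were named as well. Alternatives covered normalization, dim probe sets, limits of the rule, variance models, the replicate number as a block and leaving out arrays. Using each OsRR6ox array alone was added after seeing the data.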

Additional observations from a re-analysis of the deposited data

How the results depend on the processing

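The number of members stayed within 1.5 times of 73 under quantile normalization (69), median centring (70), spike-in centring (70), other limits on the gap (66 to 78), leaving out dim probe sets (73) and the brightest probe set per gene (73), and the number higher on OsRR6ox replicate 1 lay between 15 and 21 there. With a limit of 1.5 between the OsRR6ox arrays 18 remained, 3 of them higher on replicate 1, and with a limit of 0.5 between the wild type arrays 40 remained, 10 of them higher on replicate 1. The rule needs both OsRR6ox arrays, so no count of members exists without one of them. The signed differences of all 73 members, OsRR6ox replicate 1 minus replicate 2, shifted by -0.07 to 0.02 under the 3 normalizations. In the comparison of genotypes, 296 probe sets were called (185 higher in OsRR6ox), against 492 after median centring (283 higher), 3396 after spike-in centring (3218 higher), and 105 with the replicate block (76 higher). The replicate differences of the genotypes correlated at r = 0.26, and with 2 pairs this does not establish a pairing. With 1 array left out there were 45 to 465 calls, namely 51 without OsRR6ox replicate 1, 45 without OsRR6ox replicate 2 and 465 without wild type replicate 2. Of the 73 members, 31 were called after spike-in centring, all higher in OsRR6ox, beside 3396 of all 22746 probe sets. That centring moved the median OsRR6ox minus wild type of all probe sets to 0.45 from -0.04. The rule chose the members by differences between the same arrays, so nothing is read from their share. In every other fit with no array left out, the replicate block included, 0 members were called. The intensity trend, the robust prior, quantile normalization, leaving out dim probe sets and leaving out wild type replicate 1 kept the number of calls within 1.5 times of 296. A lone array is assumed to vary like the other genotype's pair.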

Other observations

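Of the 122 probe sets without a gene name here that differed by 1 or more between the OsRR6ox arrays, 84 met all other limits of the rule. They comprise more probe sets than the 73 members, and 52 of the 122 were higher on OsRR6ox replicate 1 and 70 on replicate 2. The genes behind them were not analysed here.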
